A study of Mus musculus with 24 samples.

Results

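Voltage-gated sodium (Nav) and calcium (Cav) channels are membrane proteins that open when a cell depolarises. Each is built around a pore-forming α subunit that carries the voltage sensor, to which auxiliary subunits bind that set how many channels reach the membrane and how they open and close. In the hippocampus, Nav channels start and carry action potentials, whereas Cav channels let in the calcium that triggers transmitter release, shapes firing and signals to the nucleus. The genes described here are the 39 whose symbols name a subunit of these channels: 10 Nav α subunits, 4 Nav β subunits, 9 Cav α1 subunits (3 each of the Cav1, Cav2 and Cav3 families), 4 α2δ subunits, 4 Cav β subunits and 8 γ subunits, several of which are better known as TARPs, the auxiliary subunits of AMPA-type glutamate receptors. They were chosen by symbol alone, 39 of the 55254 genes in the count tables. The skeletal muscle gene Cacna1s lay outside the symbol pattern.

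Nuclei were taken from the hippocampus of male C57BL/6N mice aged 6 months and sorted with an antibody against NeuN, a nuclear protein of neurons, into NeuN+ nuclei (neurons) and NeuN- nuclei (mainly glia). The mice were wild type (WT), Mutyh-/-, Ogg1-/- or DKO, which lacks both genes. Ogg1 and Mutyh encode DNA glycosylases, enzymes that start the repair of oxidised guanine and of the adenine mispaired with it, and both were deleted in the whole animal, the DKO mice coming from crosses of the single knockouts. Nuclear RNA was sequenced in 3 replicates of each of the 8 groups, 24 libraries. The study describes nuclei pooled across several animals, so whether a replicate is 1 animal, 1 pool or part of a pool is unclear, and p-values measure the spread between these libraries, which may be technical. Per the labels, lanes were not shared between NeuN+ and NeuN- libraries, which leaves cell type and lane confounded: the effects of each cannot be told apart.

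Total counts ranged from 56563586 to 96192142 per library in NeuN+ and from 56982273 to 92409869 in NeuN-. Levels are given as CPM, counts scaled to a common library size, with edgeR's TMM factors over all 24 libraries. Of the targeted genes, Ogg1 differed by log2 fold changes of 0.05 in NeuN+ and 0.02 in NeuN- between the libraries labelled Ogg1-/- and WT. Counts over a whole gene do not show whether a deleted part is missing. Mutyh went against its label: in NeuN+ it had 1.15, 1.28 and 1.27 CPM in WT but 11.4, 11.5 and 9.88 CPM in the libraries labelled Mutyh-/-, and 8.47, 9.20 and 12.2 CPM in those labelled DKO. Genotypes are named here as the labels name them, and directions drawn from the libraries labelled Mutyh-/- or DKO carry this limit. The sort could be followed in its own target, Rbfox3 (NeuN), with 1480, 1430 and 1470 CPM in WT NeuN+ libraries and 80.3, 92.0 and 97.6 CPM in WT NeuN-.

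The counts were taken over whole genes, introns included. Small RNA genes inside introns were compared with the count that their share of the host gene's full length predicts. In NeuN+ the median ratio of observed to predicted was 1.03 over 310 such genes on the host's strand. It was 0.665 over 77 on the opposite strand. Against a prediction from the host's exon length alone, the ratios were 0.041 and 0.0191. Reads of both strands and of overlapping genes were thus counted for each gene. The channel genes are long. Of the 39, 20 span more than 100 kb (51.3%), against 8.68% of the 32426 tested genes with a known position, and their median span was 111 kb against 10.7 kb. Levels of different genes are therefore compared below only per kb of gene body.

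**Figure D1:**
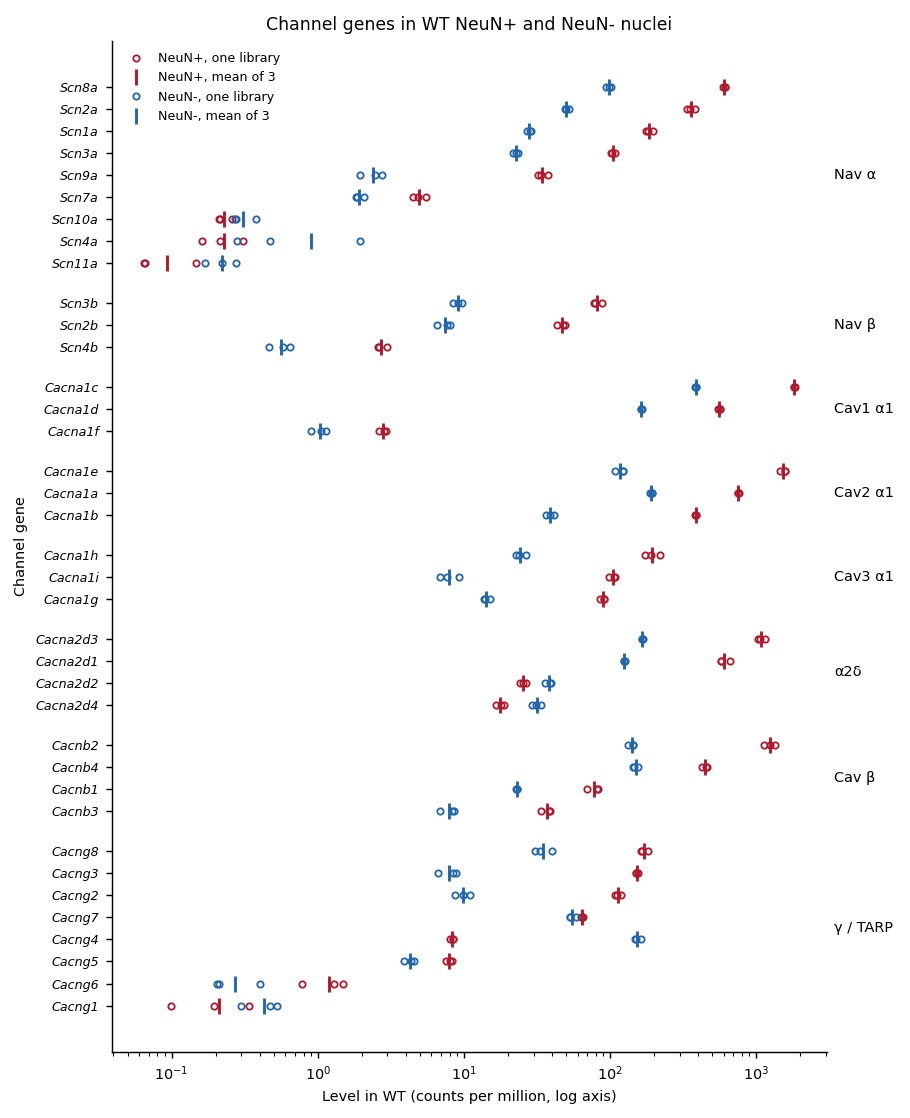
Levels of 37 of the 39 channel genes in WT (CPM, log axis), by subunit class. Open circles are single libraries and bars the mean of 3, in red for NeuN+ and blue for NeuN-. Most genes sit far to the right in NeuN+, whereas Cacng4 lies at 154 CPM in NeuN- against 8.31 CPM in NeuN+.

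The first comparison asked which channel genes are neuronal in these nuclei. In WT, 30 of the 39 were higher in NeuN+ than in NeuN- and 3 were lower (log2 difference beyond 1 and adjusted p under 0.05, edgeR quasi-likelihood test, Benjamini-Hochberg over 33523 genes). Of all tested genes, 21.3% were higher and 21.6% lower by the same thresholds. The median log2 difference of the channel genes was 2.22, against -0.01 over all tested genes. Under the same rule, 29 were higher in the Mutyh-/- libraries (background 21.8%), 31 in Ogg1-/- (21.7%) and 29 in DKO (20.8%). Across the 4 genotypes, 29 genes were higher in NeuN+ every time and 1, Cacng4, was lower every time. The share of all tested genes that passed in all 4 was not counted. In bulk nuclei, fewer nuclei of a type and less RNA per nucleus cannot be told apart.

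Among the Nav α subunits, Scn8a, which encodes Nav1.6 of the axon initial segment and nodes, had the highest level per kb of gene body in both cell types. It had 612, 593 and 615 CPM in WT NeuN+ and 93.4, 98.5 and 101 CPM in WT NeuN-, a log2 difference of 2.63. Per kb, Scn8a reached 3.45 ± 0.0685 CPM in NeuN+ (SD, n = 3), followed by Scn2a (Nav1.2) with 2.44 ± 0.148 and Scn1a (Nav1.1, the main sodium channel of many interneurons) with 1.09 ± 0.0668. Scn3a (Nav1.3, mainly an embryonic channel) had 0.948 ± 0.0376 CPM per kb, slightly below Scn1a and without overlap of their ranges of 1 SD. Their log2 differences between the cell types were 2.83 for Scn2a, 2.72 for Scn1a and 2.21 for Scn3a, all passing the test. The NeuN+ and NeuN- libraries of these 4 genes did not overlap, but the share of all tested genes without overlap was not counted.

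Scn9a, which encodes Nav1.7, known from pain-sensing neurons, was far lower per kb (0.222 CPM in NeuN+) but had the second largest log2 difference among the channel genes higher in NeuN+. It had 37.4, 33.6 and 32.2 CPM in WT NeuN+ against 1.96, 2.75 and 2.48 CPM in WT NeuN-, which differed by 3.85 on the log2 scale (standard error, SE, 0.21; adjusted p = 9.78e-14, edgeR). The antisense gene Gm13629 shares 42.6% of the Scn9a gene body and had a count equal to 67.3% of that of Scn9a in NeuN+, so the count of Scn9a is uncertain as to strand. Scn7a (Nax, a sodium sensor) was low, with means of 4.94 CPM (NeuN+) and 1.92 CPM (NeuN-). Its log2 difference of 1.37 passed in WT, and it passed in 2 of the 4 genotypes.

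The remaining Nav α genes were at the edge of detection. Scn10a (Nav1.8 of sensory neurons) had 0.228 CPM in NeuN+ and 0.308 in NeuN-, and Scn11a (Nav1.9) had 0.0923 and 0.222, neither passing both thresholds in any genotype. Scn4a, the skeletal muscle channel Nav1.4, had 0.162, 0.308 and 0.215 CPM in WT NeuN+ and 0.281, 1.95 and 0.468 CPM in WT NeuN-. Its log2 difference of -1.93 (SE 0.80, adjusted p = 0.0353, edgeR) passed, but the groups overlapped and 1 NeuN- library was much higher than the others. Without NeuN- WT replicate 2 the value was -0.70 and no longer passed, and the call was also lost without any 1 of the 3 NeuN+ WT libraries. In NeuN-, Scn4a ranged from 0.224 CPM in a Mutyh-/- library to 2.81 CPM in an Ogg1-/- library, with 0.270 CPM in another library of that group.

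The Nav β subunits, which tether the channel and bind adhesion partners, were all higher in NeuN+. Scn2b had 43.4, 47.9 and 49.3 CPM in WT NeuN+ and 6.54, 7.63 and 7.99 CPM in WT NeuN- (log2 difference 2.67). Scn3b had 79.0, 78.1 and 87.8 CPM against 8.37, 9.19 and 9.66 CPM (3.17). Per kb of gene body, Scn2b (3.81 ± 0.252 CPM) and Scn3b (3.64 ± 0.24) had overlapping ranges of 1 SD in NeuN+. Scn4b (2.28) also passed, at only 2.72 CPM in NeuN+. Scn2b lies wholly inside Gm10684 on the opposite strand, and both genes had nearly the same counts, so the reads of the pair cannot be assigned.

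All 9 Cav α1 genes were higher in NeuN+ in every genotype. In the Cav1 (L-type) family, Cacna1c (Cav1.2) had 1840, 1810 and 1830 CPM in WT NeuN+ and 389, 382 and 389 CPM in NeuN-, differing by 2.24 on the log2 scale, with very little spread between libraries. Cacna1d (Cav1.3) differed by 1.77 and Cacna1f (Cav1.4 of the retina) by 1.43, the latter at 2.80 CPM in NeuN+. In the Cav2 family of presynaptic channels, Cacna1e (Cav2.3, R-type), Cacna1a (Cav2.1, P/Q-type) and Cacna1b (Cav2.2, N-type) differed by 3.70, 1.98 and 3.31. In WT NeuN+, Cacna1e had 1570, 1460 and 1570 CPM, and in WT NeuN- Cacna1a had 188, 193 and 194 CPM. Per kb of gene body, Cacna1e (3.11 ± 0.125 CPM) and Cacna1a (3.01 ± 0.0237) had overlapping ranges of 1 SD in NeuN+, and both were above Cacna1b (2.43 ± 0.0182). In NeuN- the order was another, with Cacna1a at 0.761 ± 0.0124 CPM per kb, Cacna1b at 0.244 ± 0.0169 and Cacna1e at 0.238 ± 0.0163.

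The Cav3 (T-type) channels, which open near the resting potential and drive burst firing, had log2 differences of 3.00 for Cacna1h, 2.65 for Cacna1g and 3.73 for Cacna1i. Cacna1h, with 175, 192 and 219 CPM in WT NeuN+ and 22.8, 23.8 and 26.6 CPM in NeuN-, had the highest level per kb of the family in both cell types, 3.28 ± 0.375 and 0.410 ± 0.0329 CPM. Cacna1i (Cav3.3) had 99.3, 108 and 107 CPM in WT NeuN+ and 6.83, 7.70 and 9.22 CPM in WT NeuN-, with an adjusted p of 1.19e-17 in edgeR. It thus stood with Scn9a and Cacng3 among the 3 largest differences of genes higher in NeuN+. For Scn9a and Cacna1i, 2 of these neuronal genes, the 250 bases upstream of the start are shown. Whether these bases regulate the genes was not tested. They were taken from RefSeq on GRCm38.p6 and are written 5′ to 3′ along the gene, with CG dinucleotides in capitals. Cacna1i has 16 CG dinucleotides there and Scn9a 5, against a median of 6 over the 32851 promoter windows of RefSeq and of 8 over the 40 windows of the 29 channel genes that had one. The Sp-family motif GGGCGG, searched on both strands, was in neither window, and it was found in 35% of the channel windows and in 32.7% of all.
Scn9a (chr2:66634963-66635212, minus strand): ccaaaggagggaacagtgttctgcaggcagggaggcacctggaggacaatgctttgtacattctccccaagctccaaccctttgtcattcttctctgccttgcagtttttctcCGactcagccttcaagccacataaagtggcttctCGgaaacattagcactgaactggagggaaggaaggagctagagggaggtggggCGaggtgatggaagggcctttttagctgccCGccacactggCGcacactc
Cacna1i (chr15:80286988-80287237, plus strand): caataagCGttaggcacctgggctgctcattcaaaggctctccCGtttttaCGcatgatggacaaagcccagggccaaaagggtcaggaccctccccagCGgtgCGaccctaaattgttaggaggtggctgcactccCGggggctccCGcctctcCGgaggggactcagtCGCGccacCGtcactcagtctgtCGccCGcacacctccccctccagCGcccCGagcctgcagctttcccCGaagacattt

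The α2δ subunits, extracellular partners of Cav channels, split between the cell types. Cacna2d1 (log2 difference 2.28) and Cacna2d3 (2.71) were higher in NeuN+, where their levels per kb, 1.38 ± 0.120 and 1.33 ± 0.0722 CPM, had overlapping ranges of 1 SD. Cacna2d1 had 667, 572 and 580 CPM there. Cacna2d2 had 25.4, 26.7 and 24.4 CPM in NeuN+ and 39.4, 35.8 and 38.9 CPM in NeuN-, differing by -0.58 on the log2 scale, within the limit of 1, with no overlap of the libraries.

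Cacna2d4 depended on how overlapping genes were counted. As deposited it had 16.5, 18 and 18.9 CPM in WT NeuN+ and 33.9, 31.3 and 29.3 CPM in WT NeuN-, a log2 difference of -0.82 that did not pass. In the other genotypes it passed, at -1.07 for Mutyh-/-, -1.02 for Ogg1-/- and -1.03 for DKO. The gene spans chr6:119236526-119352407, and Lrtm2, a gene for a leucine-rich repeat membrane protein, lies wholly inside it on the opposite strand, over 13.5% of its length. The count of Lrtm2 equalled 91.7% of that of Cacna2d4 in NeuN+ and 38.3% in NeuN-. With the Lrtm2 count subtracted, a step chosen after seeing the data, 1.56, 1.67 and 1.35 CPM were left in WT NeuN+ and 21.7, 18.3 and 16.4 CPM in WT NeuN-. The log2 difference became -3.62 (SE 0.17, adjusted p = 8.76e-15, edgeR), and it was -4.08 in Mutyh-/-, -3.93 in Ogg1-/- and -3.90 in DKO. Over all genotypes, every NeuN- library was above every NeuN+ library, both as deposited (29.3 to 44.8 against 16.5 to 21.8 CPM) and after subtraction. The subtraction also removes Cacna2d4 reads that fall within Lrtm2. Its neighbour Cacna1c, which lies with it within 765 kb, was higher in NeuN+, as given above.

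**Figure D2:**
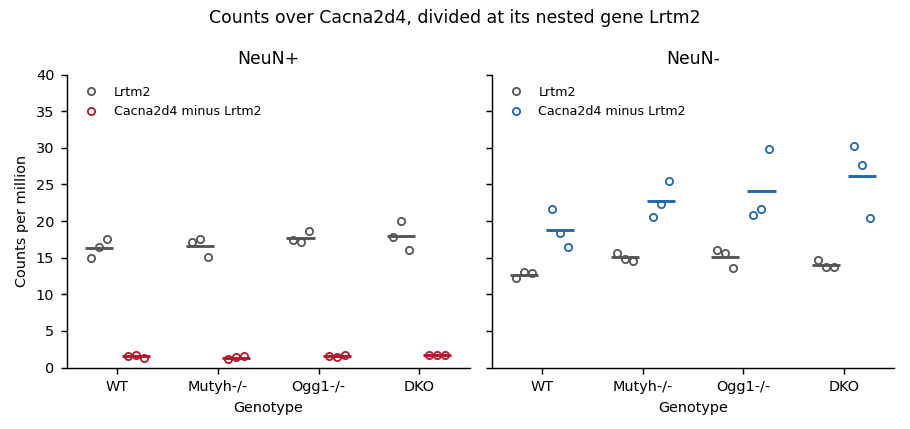
Counts over Cacna2d4 in each library (CPM), divided into those of the nested gene Lrtm2 (grey) and the remainder (red in NeuN+, blue in NeuN-). Circles are single libraries and bars the mean of 3. The remainder lies between 1.12 and 1.78 CPM in NeuN+ and between 16.4 and 30.2 CPM in NeuN-, while Lrtm2 lies between 12.2 and 20 CPM in both.

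The Cav β subunits, cytoplasmic proteins that bring α1 to the membrane, were all higher in NeuN+. The log2 differences were 3.14 for Cacnb2, 2.22 for Cacnb3, 1.76 for Cacnb1 and 1.58 for Cacnb4. Cacnb2 had 1350, 1130 and 1240 CPM in WT NeuN+ and 134, 145 and 143 CPM in NeuN-. Cacnb1 had 69.5, 82.4 and 81.0 CPM in WT NeuN+ and 23.1, 22.6 and 23.2 CPM in NeuN-. Per kb of gene body, Cacnb1 (3.61 ± 0.328 CPM) and Cacnb2 (3.22 ± 0.283) had overlapping ranges of 1 SD in NeuN+, whereas Cacnb1 was the highest of the class in NeuN- (1.07 ± 0.0167). The antisense gene Gm10848 within Cacnb2 had 11.8% of its NeuN+ count, and subtracting it gave a log2 difference of 3.16.

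The γ subunits and TARPs varied most. Cacng3 (TARP γ-3) had the largest log2 difference of all channel genes, with 156, 152 and 151 CPM in WT NeuN+ and 6.62, 8.88 and 8.40 CPM in WT NeuN- (log2 difference 4.27, SE 0.16, adjusted p = 6.77e-17, edgeR). Cacng2 (stargazin) differed by 3.52 and Cacng8 (TARP γ-8, the main hippocampal TARP) by 2.29. Cacng8, with 165, 163 and 182 CPM in WT NeuN+ and 30.5, 33.4 and 39.9 CPM in NeuN-, had the highest level per kb of any channel gene in NeuN+, 6.79 ± 0.421 CPM, of which the antisense gene Gm44151 within it may hold part, with 33.6% of its count. Cacng7 (TARP γ-7) had similar levels, 63.7, 64.3 and 65.6 CPM in NeuN+ and 53.5, 53.0 and 58.2 CPM in NeuN-, differing by 0.23 on the log2 scale, without overlap but within the limit of 1. Cacng5 had 7.93 and 4.28 CPM, a difference of 0.89 that was within the limit in WT, and Cacng6 passed at only 1.19 CPM in NeuN+.

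Cacng4 (TARP γ-4) went the other way. It had 8.08, 8.47 and 8.39 CPM in WT NeuN+ and 163, 149 and 150 CPM in WT NeuN-, 18.5-fold higher in NeuN- (log2 difference -4.21, SE 0.11, adjusted p = 4.43e-19, edgeR). The NeuN- libraries ranged from 135 to 176 CPM over all genotypes and the NeuN+ libraries from 6.68 to 9.49, so they were far apart. Per kb, Cacng4 with 2.47 ± 0.126 CPM was the highest channel gene of NeuN-. Markers of several glial types were also far higher in WT NeuN- than in NeuN+. Pdgfra (oligodendrocyte precursors) had 166 against 1.30 CPM, Aqp4 (astrocytes) 58.1 against 2.98 and Mbp (oligodendrocytes) 2100 against 97.6. Which NeuN- cell type held the Cacng4 RNA was not tested. Cacng1, a subunit of the skeletal muscle channel, had 0.195, 0.340 and 0.0991 CPM in NeuN+ and 0.471, 0.525 and 0.297 CPM in NeuN-. Its log2 difference of -1.01 (adjusted p = 0.0357, edgeR) was just past the limit, the libraries overlapped, and the call was lost without NeuN+ WT replicate 1 (-0.96) or 3 (-0.68) and without NeuN- WT replicate 1 (-0.94) or 2 (-0.86).

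Neighbouring channel genes shared a cell type pattern in some clusters and not in others. Cacng1, Cacng4 and Cacng5 lie within 212 kb at chr11:107703218-107915055, and of these Cacng4 was high in NeuN-, while Cacng1 and Cacng5 had mean levels of at most 7.93 CPM in either cell type of WT. Cacng6, Cacng7 and Cacng8 lie within 103 kb at chr7:3332955-3435667, with Cacng8 and Cacng6 higher in NeuN+ and Cacng7 differing by 0.23. In the sodium channel cluster of 5 genes at chr2:65457118-66784914, NeuN+ was higher for all 5, by 1.37 on the log2 scale for Scn7a and up to 3.85 for Scn9a.

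The NeuN- levels of most channel genes were in the range of genes that mark neurons. Over 8 neuron markers, the WT NeuN- level was 6.17% (Rbfox3) to 53.9% (Tubb3) of the NeuN+ level. For 30 of the 39 channel genes it lay in that range, for Cacng3 it was lower at 5.21%, and for 8 it was higher: Cacna2d2, Cacna2d4, Cacng1, Cacng4, Cacng7, Scn4a, Scn10a and Scn11a. None of the 8 markers was at 0 in NeuN-. How much of a channel gene's NeuN- level came from neuronal nuclei was not tested.

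The next comparisons asked whether loss of either glycosylase, or of both, altered the channel genes within a cell type. No channel gene was a DEG, defined by a log2 fold change beyond ±0.5 with an adjusted p under 0.05 (edgeR quasi-likelihood test), in any of the 6 comparisons, and DESeq2's Wald test also called 0. Of the channel genes, 38 were tested in NeuN+, where Scn11a was too low, and 39 in NeuN-. In NeuN+, 0.428% of tested genes were DEGs for Mutyh-/-, 0.574% for Ogg1-/- and 0.302% for DKO, and in NeuN- the shares were 0.273%, 0.229% and 0.116%, so that a count of 0 among 39 is near the background. Without the limit on the fold change, the count in this edgeR fit was also 0 in each of the 6. DESeq2's Wald test then gave 1, 1 and 2 channel genes in NeuN+ for Mutyh-/-, Ogg1-/- and DKO. In NeuN- it gave 1, 1 and 0. Over all genes it gave 1161, 745 and 636 of 30132 in NeuN+ and 605, 586 and 452 of 31863 in NeuN-. The 3 comparisons of a cell type share their WT libraries and are not independent of each other.

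The confidence intervals bound the size of change that these data allow. In NeuN+, the 95% confidence interval of the log2 fold change lay within ±0.5 for 32 of 38 genes for Mutyh-/-, 34 for Ogg1-/- and 35 for DKO. In NeuN- this held for 27, 26 and 25 of 39. Scn4a, Scn10a and Cacng1, all below 1 CPM on average in WT, were outside in all 6, so that a change of this size was not detectable there. In NeuN- the genes outside also held some of middle level, among them Cacng8 in Mutyh-/- and Ogg1-/- and Cacna1b in DKO. The median standard error of the channel genes was 0.08 in NeuN+ and 0.09 in NeuN-, smaller than that of all tested genes (0.13 and 0.14).

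**Figure D3:**
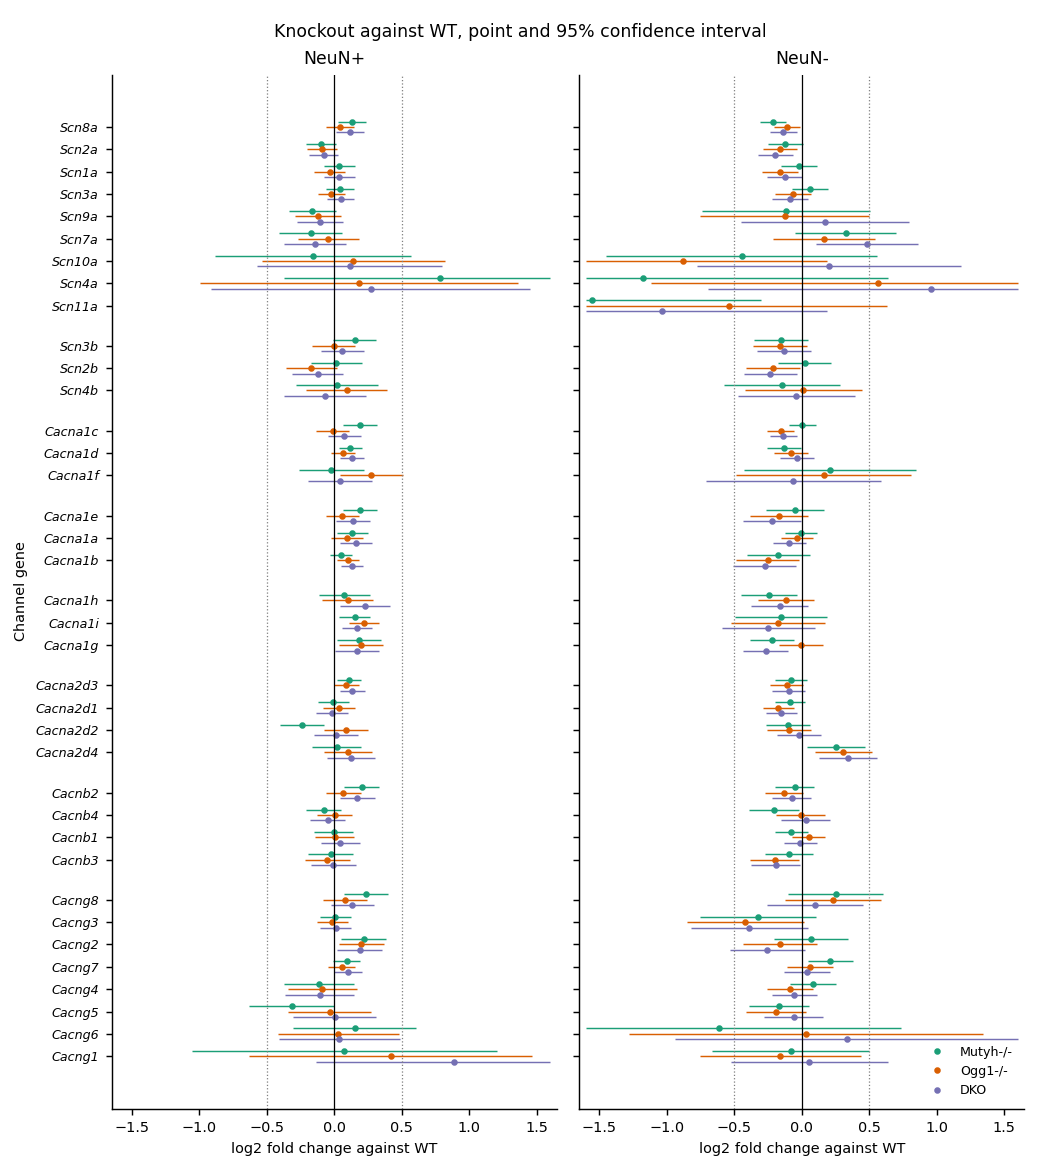
Log2 fold change of 37 of the 39 channel genes against WT (points) with its 95% confidence interval (lines, cut at the ends of the axis), for Mutyh-/- (green), Ogg1-/- (orange) and DKO (purple), in NeuN+ on the left and NeuN- on the right. Dotted lines mark ±0.5. Most points lie between the dotted lines, and over all tested channel genes the medians were 0.04 to 0.05 in NeuN+ and -0.12 to -0.09 in NeuN-.

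In NeuN+, more values lay above 0 than below. The median log2 fold change was 0.04 in Mutyh-/-, 0.05 in Ogg1-/- and 0.05 in DKO, against -0.01, 0.01 and -0.00 over all tested genes. Of the 38 values, 24, 25 and 28 were above 0, where 48.1%, 52.2% and 49.9% of all tested genes were. At an unadjusted p under 0.05, 11 channel genes were higher and 3 lower in Mutyh-/-, where 9.48% and 9.21% of all genes were. The counts were 5 higher and 1 lower in Ogg1-/- (background 5.01% and 7.33%) and 12 higher and 1 lower in DKO (5.98% and 7.51%). None of these passed the adjustment over all genes. By class, all 3 Cav2 and all 3 Cav3 genes had values above 0 in each knockout, from 0.05 to 0.23. Other classes were mixed. For Mutyh-/-, Ogg1-/- and DKO in turn, 5, 5 and 3 of 9 Nav α values were below 0. So were 1, 3 and 3 of 4 Nav β values and 3, 1 and 2 of 4 Cav β values. The medians were small and moved with single libraries. For Mutyh-/- the median was 0.014 without WT replicate 1 and 0.08 without Mutyh-/- replicate 3. For Ogg1-/- it was 0.02 without Ogg1-/- replicate 2 and 0.0066 without replicate 3. For DKO it was 0.10 without WT replicate 2, 0.08 without WT replicate 3 and 0.09 without DKO replicate 3.

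Cacna1i came nearest to the threshold. It had 99.3, 108 and 107 CPM in WT and 122, 127 and 122 CPM in Ogg1-/- NeuN+ libraries, without overlap, a log2 fold change of 0.22 (SE 0.05, adjusted p = 0.0583 in edgeR, and from 0.00706 to 0.227 over the alternatives). DESeq2's Wald test gave the lowest of these. Among values above 0, Cacnb2 had the smallest p in Mutyh-/-, with 1410, 1490 and 1380 CPM against 1350, 1130 and 1240 in WT, a log2 fold change of 0.20 (adjusted p = 0.109, edgeR, 0.0216 to 0.341 over the alternatives). Cacna1b had it in DKO, with 418, 432 and 433 CPM against 388, 383 and 388, a log2 fold change of 0.13 (adjusted p = 0.148, edgeR, 0.0207 to 0.417 over the alternatives). These 3 genes thus differed from WT by 1.17-, 1.15- and 1.09-fold.

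Without NeuN+ Mutyh-/- replicate 3, 7 channel genes had an adjusted p under 0.05 in Mutyh-/- against 0 with it, all with log2 fold changes under 0.5: Cacna1c (0.26), Cacng8 (0.32), Cacng2 (0.32), Cacna1e (0.25), Cacnb2 (0.24), Cacna1a (0.20) and Scn8a (0.18). Of all genes, 6.21% had an adjusted p under 0.05 without it (1903 of 30624), against 193 of 30132 with it. That library had the lowest summed level of the interneuron markers of all NeuN+ libraries, 106.5 CPM, where WT ranged from 159 to 170. The 7 interneuron markers all had values below 0 in Mutyh-/- and in DKO, with medians of -0.43 and -0.27, and 5 of 7 did in Ogg1-/-, with a median of -0.19. The 8 neuron markers ranged from 5043 to 5416 CPM in WT, 5429 to 5860 for Mutyh-/-, 5152 to 5661 for Ogg1-/- and 5357 to 5608 for DKO. Gene by gene, 3 of the 8 had values below 0 for Mutyh-/- (median log2 fold change 0.03), 6 for Ogg1-/- (-0.14) and 6 for DKO (-0.11), and none was a DEG in edgeR. Cytosolic ribosomal protein genes, short and abundant transcripts, summed to 1045 to 1062 CPM in WT and to 821 to 1042 CPM over the knockouts. Their part in the channel values was not tested.

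**Figure D4:**
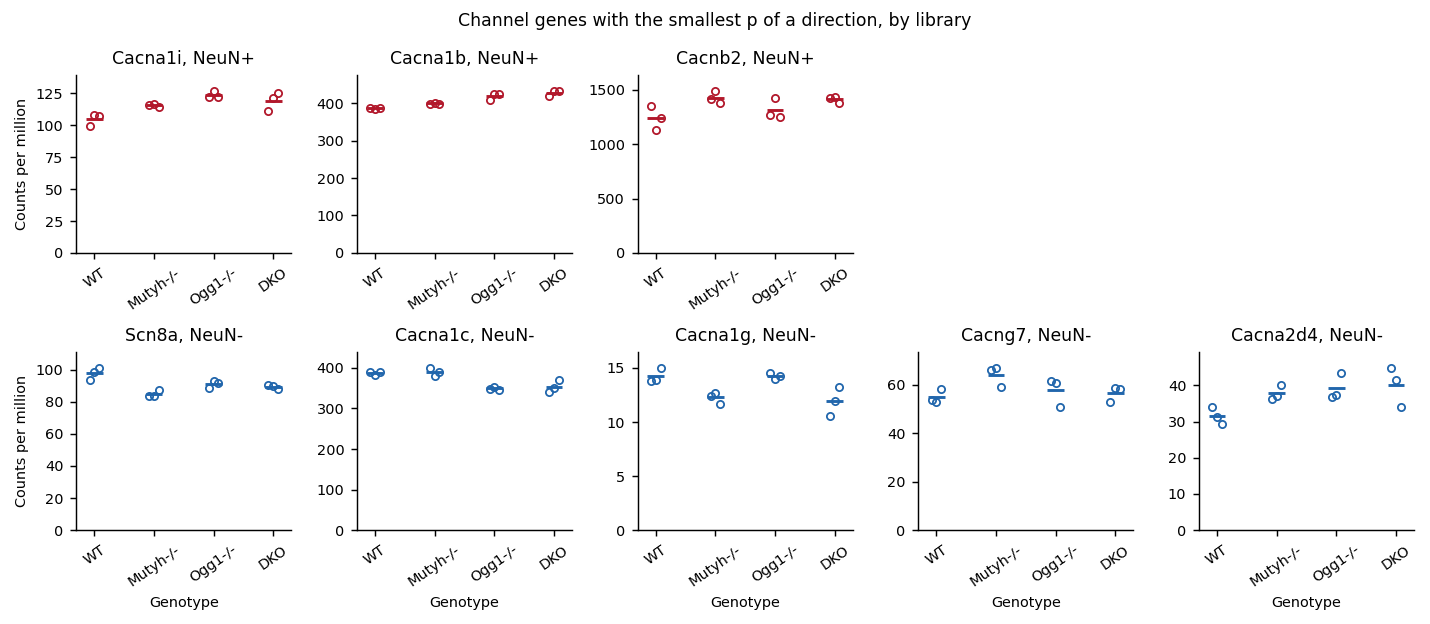
Levels (CPM, axes from 0) of channel genes with the smallest p of a direction, by library, in NeuN+ (top, red) and NeuN- (bottom, blue). Circles are single libraries and bars the mean of 3. The groups lie close together, for instance Scn8a in NeuN- at 93.4 to 101 CPM in WT and 83.4 to 87.5 CPM in Mutyh-/-.

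In NeuN-, more values lay below 0 than above. The median log2 fold change was -0.10 in Mutyh-/-, -0.12 in Ogg1-/- and -0.09 in DKO, against -0.01, 0.00 and 0.01 over all tested genes. Of the 39 values, 29, 29 and 28 were below 0, where 51.2%, 49.8% and 48.5% of all tested genes were. The 8 γ genes were mixed, with 4, 5 and 4 values below 0. At an unadjusted p under 0.05, 2 were higher and 7 lower in Mutyh-/- (6.78% and 6.9% of all genes), 1 higher and 9 lower in Ogg1-/- (5.75% and 6.08%), and 2 higher and 9 lower in DKO (6.06% and 6.31%). The fitted values of the 3 Cav3 and 3 Cav2 genes ran from -0.27 up to about 0, with Cacna1g in Ogg1-/- (means of 14.2 CPM in WT and 14.3 in Ogg1-/-) and Cacna1a in Mutyh-/- (192 CPM in both) at the WT level.

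The summed level of the 39 genes in NeuN- ranged from 2113 to 2156 CPM in WT, 2044 to 2106 for Mutyh-/-, 1989 to 2036 for Ogg1-/- and 1946 to 2087 for DKO. All 9 knockout libraries were thus below the same 3 of WT. How often sums of other gene sets lie apart in this way was not counted. Genes with high CPM weigh most in the sum, such as Cacna1c with a mean of 387 CPM in WT NeuN-. The sum of the 8 neuron markers ranged from 623 to 699 CPM in WT, 625 to 648 for Mutyh-/-, 588 to 654 for Ogg1-/- and 565 to 632 for DKO, with overlap. Both sums were lowest on average in the Ogg1-/- and DKO libraries. Of these 8 markers, 8 had values below 0 for Mutyh-/-, 7 for Ogg1-/- and 8 for DKO, with median log2 fold changes of -0.11, -0.26 and -0.30, and none was a DEG in edgeR. Astrocyte markers summed to 2789 to 3314 CPM in WT and to 2853 to 4112 CPM over the knockouts, and 1 of the 6 was a DEG, higher in Ogg1-/-. Ribosomal protein genes summed to 1129 to 1154 CPM in WT and to 938 to 1117 CPM over the knockouts. No marker of oligodendrocytes, their precursors, microglia, vessels or choroid plexus was a DEG. The part of these markers in the channel values was not tested.

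**Figure D5:**
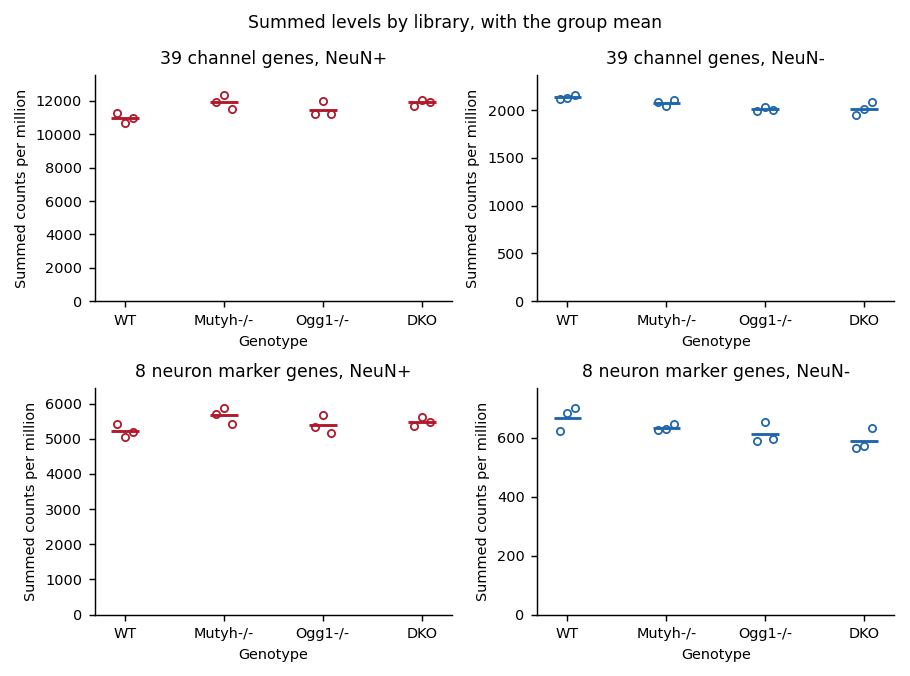
Summed CPM of the 39 channel genes (top) and of 8 neuron marker genes (bottom) in each library, NeuN+ in red and NeuN- in blue, axes from 0. Circles are single libraries and bars the mean of 3. In NeuN-, the channel sum was 2113 to 2156 CPM in WT and 1946 to 2106 CPM in the knockouts.

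Scn8a had the smallest p of these genes in NeuN-, with 83.5, 83.4 and 87.5 CPM in Mutyh-/- and 93.4, 98.5 and 101 CPM in WT, without overlap. The log2 fold change was -0.21 (SE 0.05, adjusted p = 0.0981, edgeR, and 0.00286 to 0.423 over the alternatives). Cacna1c in Ogg1-/- had 349, 354 and 345 CPM against 389, 382 and 389 in WT, a log2 fold change of -0.15 (adjusted p = 0.216, edgeR, 0.0374 to 0.492 over the alternatives). Cacna1g in DKO had 10.6, 11.9 and 13.2 CPM against 13.8, 13.9 and 15.0, a log2 fold change of -0.27 (adjusted p = 0.214, edgeR, 0.0811 to 0.408 over the alternatives).

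The smallest p among values above 0 belonged to Cacna2d4 and Cacng7, both among the 8 genes whose NeuN- level lay above the range of the neuron markers. Cacna2d4 had 36.9, 37.4 and 43.4 CPM in Ogg1-/- and 44.8, 41.4 and 34.0 CPM in DKO against 33.9, 31.3 and 29.3 in WT. Its log2 fold changes were 0.31 (adjusted p = 0.236, edgeR) and 0.34 (adjusted p = 0.216). After subtraction of Lrtm2 they were 0.35 (adjusted p = 0.447) and 0.47 (adjusted p = 0.305). Cacng7 had 66.1, 66.9 and 58.9 CPM in Mutyh-/- against 53.5, 53.0 and 58.2 in WT, a log2 fold change of 0.21 (adjusted p = 0.268, edgeR). Cacng4, the gene highest in NeuN- relative to NeuN+, had NeuN- log2 fold changes of 0.08, -0.09 and -0.06 in the 3 knockouts.

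Whether a knockout acted differently in NeuN+ and NeuN- was tested as an interaction over all 24 libraries. No channel gene passed an adjusted p under 0.05 in edgeR's quasi-likelihood test (against a background of 0.0209% for Mutyh-/-, 0.0537% for Ogg1-/- and 0.0567% for DKO). At an unadjusted p under 0.05 there were 9, 8 and 13 of 39, against 8.58%, 7.09% and 9.4% of all genes. Scn8a in Mutyh-/- had the smallest p, an interaction of 0.33 on the log2 scale (SE 0.07, adjusted p = 0.105, edgeR), from 612, 593 and 615 CPM in WT to 672, 688 and 627 in NeuN+ while it was lower in NeuN-. Cacna1g had interactions of 0.39 in Mutyh-/- (adjusted p = 0.286) and 0.45 in DKO (adjusted p = 0.182), with NeuN+ levels of 85.1, 91.8 and 91.0 CPM in WT, 105, 106 and 91.3 in Mutyh-/- and 88.4, 108 and 108 in DKO.

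These 0 counts of interactions depended on the test. DESeq2's Wald test called Scn8a in Mutyh-/-, and Cacna1g, Cacna2d3, Scn8a and Cacna1b in DKO, where it called 0.224% and 0.615% of all genes. With genotype and replicate number as a block, Cacna1g was called in Mutyh-/- (0.39, adjusted p = 0.0470, edgeR) and in DKO (0.44, adjusted p = 0.0160), against 0.0925% and 0.158% of all genes. Leaving out NeuN+ or NeuN- Mutyh-/- replicate 3 gave Scn8a in Mutyh-/- (adjusted p = 0.0298 and 0.0321, edgeR), with 0.0938% and 0.278% of all genes called. Leaving out NeuN- DKO replicate 3 gave Cacna1e, Cacna1g, Cacna1i and Cacna1b in DKO (adjusted p = 0.0188 to 0.0371), with 0.338% of all genes called. That DKO library had the highest choroid plexus markers of all NeuN- libraries, 213 CPM in sum where the other DKO libraries had 7.15 and 61.8, and the lowest oligodendrocyte markers, 4501 CPM. Their part in the result was not tested.

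Genes whose proteins work with the channels were counted in the same fits. By the same thresholds, 21.3% of all tested genes were higher in WT NeuN+ than in NeuN- and 21.6% lower. Of 10 Nav partners, 6 were higher in WT NeuN+, among them Fgf14, which tunes Nav gating (2.26), and Sptbn4, a spectrin of the axon initial segment (3.06), and 1 was lower, the cell adhesion gene Nfasc (-1.24). Of 15 Cav partners, 12 were higher, such as the active zone scaffolds Rims1 (2.87) and Rimbp2 (3.36). The 3 lower ones, Rem1 (-4.82), Gem (-2.25) and Rrad (-2.50), encode small GTP-binding proteins that inhibit Cav channels, whose relative Rem2 was higher (2.63). Of 9 AMPA receptor partners of the TARPs, 8 were higher, with Cnih3 at 3.82 and Gria1 at 3.79, while Gria4 (0.57) did not pass. Of 8 related cation channel genes, 3 were higher (Unc79, Unc80 and Fam155a, subunits and partners of the sodium leak channel) and 3 lower (Cacna1s, Tpcn1 and Hvcn1). None of the partners was a DEG in any of the 6 knockout comparisons by edgeR's quasi-likelihood test. Over the same 6, 0.116% to 0.574% of all tested genes were DEGs, so that a count of 0 is near the background. The calmodulin gene Calm2 had an adjusted p of 0.0234 in Ogg1-/- NeuN+ (edgeR), with a log2 fold change of -0.47, within the limit of 0.5.

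Gene length was compared because so many of the channel genes are long. In NeuN+, the 20 genes over 100 kb had median log2 fold changes of 0.05, 0.06 and 0.11 in Mutyh-/-, Ogg1-/- and DKO, and the 18 shorter ones 0.02, 0.02 and 0.04. All tested genes over 100 kb had medians of 0.00, 0.02 and 0.01. In NeuN-, the long channel genes had medians of -0.08, -0.13 and -0.09 and the 19 shorter ones -0.15, -0.09 and -0.06, against 0.02, 0.02 and 0.04 over all long genes. All shorter tested genes had medians of -0.01, 0.01 and -0.00 in NeuN+ and of -0.01, -0.00 and 0.00 in NeuN-. In both classes of length the channel medians were above 0 in NeuN+ and below 0 in NeuN-. In NeuN+ the long channel genes had the larger medians in each knockout. The part of gene length in these values was not tested.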

How the data were processed

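The authors aligned reads to GRCm38 with HISAT2 2.1.0 and deposited raw counts per Ensembl gene from featureCounts, 1 column per library, for 55254 gene symbols. How strand, overlapping genes and reads with several alignments were handled is not given in the sources used here. The channel genes and the partner and marker lists were chosen with earlier results of these data known, and so was the rule for the genes given by library: those passing a test, those with the smallest p in each direction of each comparison with WT, the largest and smallest cell type differences, and the highest level in each class. A few of the genes counted or falling under this rule are not reported here by name. The rule meant exon length for levels, but since counts cover introns, gene body length from GENCODE vM21 was used instead, a choice made after seeing the data. It changed the highest gene of the Cav2, α2δ and Cav β classes, which by exon length were Cacna1a, Cacna2d3 and Cacnb2 in NeuN+, and the highest α2δ and Cav β genes in NeuN-, which were Cacna2d3 and Cacnb4.

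Counts were fitted with edgeR 4.0.16 in R 4.3.3 (filterByExpr, TMM, quasi-likelihood test, Benjamini-Hochberg adjustment), within a cell type for comparisons with WT (30132 and 31863 genes) and over all 24 libraries for cell types and interactions (33523 genes). The biological coefficient of variation was 0.0823, 0.124 and 0.105. Scripts were tested on simulated data. Alternatives were DESeq2 1.42.0, other filters and thresholds, fits of 2 genotypes, a replicate block, and leaving out each library.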

Additional observations from a re-analysis of the deposited data

How the results depend on the processing

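The count of 0 channel DEGs in each of the 6 comparisons with WT held under DESeq2 size factors and Wald test, both filters and the replicate block. It also held in fits of 2 genotypes and with each library left out (0 to 0). In the main edgeR fit it held without a limit on the fold change. An adjusted p under 0.05 with a smaller fold change was reached under some of the alternatives. In Ogg1-/- NeuN+, Cacna1i reached it in 5 of them. In Mutyh-/- NeuN+, 7 genes did without replicate 3, and 5 did without a low-count filter (1450 of all 47583 genes). In Mutyh-/- NeuN-, Scn8a did under DESeq2's Wald test and, among others, without replicate 3. Under that Wald test, Cacna1d and Cacna1b did in DKO NeuN+, and Cacna1c did in Ogg1-/- NeuN-. The counts for NeuN+ against NeuN- ranged, with a library left out, from 31 to 33 for WT, 31 to 32 for Mutyh-/-, 32 to 35 for Ogg1-/- and 31 to 33 for DKO. The interactions were less stable. DESeq2's Wald test called 1 channel gene in Mutyh-/- and 4 in DKO. With 1 library left out, the count ranged from 0 to 1 for Mutyh-/-, 0 to 0 for Ogg1-/- and 0 to 4 for DKO. The causes were not tested. With genotype and replicate number as a block, pairing the NeuN+ and NeuN- libraries, 1 channel gene was called in Mutyh-/- and 1 in DKO, Cacna1g both times. Within a genotype, 21 of 24 libraries correlated best with the library of their own number in the other cell type, a hint from the data, but only 8 of 12 such pairs had a correlation of deviations above 0.1, and the labels do not say that a number marks a shared animal or pool. Within a cell type, same-numbered libraries of 2 genotypes had mean correlations of -0.01 in NeuN+ and 0.06 in NeuN-, and the block left 0 channel DEGs. Subtracting Lrtm2 brought Cacna2d4 past the threshold in WT (-3.62). The sign of the median fold change held in all alternatives of the 6 comparisons. Channel genes below about 1 CPM had too few counts for changes under 0.5 on the log2 scale to be seen.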

Other observations

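Cacna1s, the muscle L-type channel outside the list above, was lower in WT NeuN+ than in NeuN- by -1.30 on the log2 scale. In NeuN+, the 9 AMPA receptor partners of the TARPs had median log2 fold changes of 0.12, -0.01 and 0.09 against WT. In NeuN- the medians were -0.06, -0.06 and -0.10, each for Mutyh-/-, Ogg1-/- and DKO in turn. Of these 9 genes, 0 were DEGs by edgeR's quasi-likelihood test, where 0.116% to 0.574% of all tested genes were.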
